A study of Mus musculus with 18 samples.

Results

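The AP-1 and Egr transcription factors that muscle cells and most other cells switch on as an early response to a signal were followed in palmitate-treated myotubes. The group consists of 10 genes out of the 55414 in the count table: the Fos family genes Fos, Fosb, Fosl1 and Fosl2, the Jun family genes Jun, Junb and Jund, and the zinc finger genes Egr1, Egr2 and Egr3. They were chosen by name and on their joint variation between palmitate libraries of the same group, so that variation is described here without a test. All 10 were among the 21772 genes with at least 10 counts over the 18 libraries.

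Cells of C2C12, a mouse muscle precursor line that fuses into contractile myotubes when serum is reduced, were transfected at confluence with a non-targeting siRNA (siNtc), a pool of siRNAs against Erk3 (siErk3) or a pool against Mk5 (siMk5). Erk3, encoded by Mapk6, is an atypical MAP kinase, and Mk5, encoded by Mapkapk5, is a kinase that binds it. After 6 days of differentiation the myotubes spent 16 h in serum-free medium with 0.5 mM palmitic acid bound to bovine serum albumin (PA) or with the albumin alone (BSA). Each of the 6 groups had 3 libraries, numbered 1 to 3, and all came from a single cell line. The silenced groups were compared with the same siNtc libraries, which those comparisons therefore share. Whether the libraries of a group were separate cultures was not stated in the sources used here, so p-values measure the spread between these libraries, which may be technical.

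Poly(A) RNA was counted as read pairs per gene, and the total per library ran from 13041979 in siNtc BSA replicate 1 to 28496727 in siErk3 PA replicate 2. Replicate 1 of siNtc BSA also stood apart in Jund and Junb, and results that rest on it are given with and without it. Levels are given in CPM, a gene's count relative to the library size after TMM scaling. Mapk6 was lower in both siErk3 groups, with a log2 fold change of -1.20 ± 0.06 (SE) in BSA and of -0.95 ± 0.06 in PA. Mapkapk5, at 1.18 to 3.92 CPM, was lower in siMk5 than in siNtc by log2 fold changes of -0.61 ± 0.21 in BSA and -0.49 ± 0.18 in PA, which did not pass edgeR's test after adjustment over all genes (adjusted p = 0.469 in both media). By Western blot, the study reports that both kinases were silenced and that silencing Mk5 also lowered Erk3 protein. All 12 myotube markers were detected, and their summed level was 12713 to 17785 CPM. Of 8 markers of fibroblasts, endothelium and blood cells, Adgre1 was at 0 in every library, and Ptprc, the pan-leukocyte marker, did not reach 10 counts. The endothelial genes Pecam1 and Cdh5 averaged under 1 CPM. The fibroblast genes Dcn, Pdgfra and Dpt were expressed, with Dcn at 58.4 and Dpt at 6.18 CPM on average in siNtc BSA. The macrophage gene Cd68 averaged 1.26 CPM in the same group. In these bulk samples, fewer cells of a type and less RNA per cell cannot be told apart.

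AP-1 is a dimer of basic leucine zipper proteins that binds a short palindromic element in enhancers and promoters. Jun proteins pair with themselves or with Fos proteins, whereas Fos proteins need a Jun partner. Egr proteins bind GC-rich elements through zinc fingers. Most of these genes are immediate early genes: their transcription needs no new protein, starts within minutes of a growth factor, stress or contraction signal, and is driven in large part by serum response factor with its ETS partners at CArG boxes and by CREB family proteins at cAMP response elements. Their transcripts are short-lived, and in muscle they respond to exercise, injury and stretch.

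The promoters of these genes were read from the GRCm39 genome, which is the build of the count table, before the start of the canonical transcript in GENCODE M39. The CArG box was found on either strand within 500 bases of the start in 4 of the 10 genes (Fos, Fosb, Egr2 with 2 matches, and Egr3), and in 2.76% of all 21770 promoters of protein-coding genes. The cAMP response element TGACGTCA was found in 1 of the 10 (Jund) and in 1.96% of all promoters, the AP-1 element TGANTCA in 1 (Fos) and in 12.3%, and the EGR element GCGNGGGCG in 3 (Fosb, Jun and Jund) and in 5.45%. TATAAA stood in 3 of the 10 (Fos, Fosl1 and Junb) and in 24.3% of all promoters, and the ETS element CCGGAAG in 0 and in 8.86%. Both strands were searched for each, and TATAAA can also lie inside a CArG box, which it did in none of these genes. Egr1 and Fosl2 had 0 matches to any of these motifs. The promoters were not checked for unread bases, so a lack of matches need not mean that an element is absent. The canonical start of Fos lies before the gene start of the older annotation in the count table. Below are the promoters of Fos and Fosb, which each hold a CArG box match and had similar log2 fold changes in PA. Capitals mark the matches to the motifs searched. The windows are chr12:85520338-85520637 on the plus strand for Fos (bases 320 to 21 before the start) and chr7:19043977-19044276 on the minus strand for Fosb (bases 300 to 1).
Fos: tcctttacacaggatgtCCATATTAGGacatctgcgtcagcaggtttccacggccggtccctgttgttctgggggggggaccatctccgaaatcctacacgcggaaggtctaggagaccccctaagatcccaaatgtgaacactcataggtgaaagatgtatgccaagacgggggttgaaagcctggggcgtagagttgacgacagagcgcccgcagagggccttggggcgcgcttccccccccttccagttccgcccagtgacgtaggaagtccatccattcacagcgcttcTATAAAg
Fosb: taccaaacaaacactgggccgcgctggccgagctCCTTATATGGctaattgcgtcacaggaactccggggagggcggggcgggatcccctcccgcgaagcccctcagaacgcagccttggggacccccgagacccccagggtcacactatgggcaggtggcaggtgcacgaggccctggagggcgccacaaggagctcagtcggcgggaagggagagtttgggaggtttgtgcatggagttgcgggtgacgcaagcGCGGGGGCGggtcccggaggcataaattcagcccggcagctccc

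In the Fos window the CArG box began 303 bases before the start and TATAAA 27 bases before it. In Fosb the CArG box began 266 bases and an EGR element 44 bases before the start. A match is a sequence description and was not tested for binding.

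The 10 genes were at very different levels in siNtc BSA. Per kilobase of exon, Junb was highest with 96.1 ± 15.2 CPM per kb (SD, n = 3) and overlapped Jund with 80.4 ± 13.4. Egr1 followed with 31.4 ± 0.3, then Jun with 28.7 ± 2.5, Egr3 with 20.7 ± 0.6 and Fosl2 with 11.02 ± 0.60. Egr2 had 5.58 ± 0.34, Fosl1 3.84 ± 0.28, Fos 2.21 ± 0.39 and Fosb 0.38 ± 0.09 CPM per kb. Apart from Junb and Jund, no neighbours in this order had overlapping libraries. In siNtc PA, Junb was again highest with 148.7 ± 15.1 CPM per kb, and Jund was next with 76.5 ± 4.1. Fosl1 had moved up to 48.5 ± 12.2 CPM per kb and overlapped Jun with 52.4 ± 6.2 and Egr1 with 45.2 ± 5.7. Fos, with 8.94 ± 2.18, overlapped Egr2 with 7.10 ± 0.71, and Fosb stayed lowest with 1.58 ± 0.32.

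The comparison of PA with BSA asks how the fatty acid load changed these genes. With control siRNA 6 of the 10 rose and 1 fell at a Benjamini-Hochberg adjusted p below 0.05 and a fold change above 1.3, in edgeR's quasi-likelihood test over all genes. Over all genes 15.5% were called higher and 15.1% lower. In siErk3 5 rose and 1 fell, where 15.8% and 16.3% of all genes were called, and in siMk5 6 rose and 1 fell, where 15.1% and 14.6% were called. Fos, Fosb, Fosl1, Jun and Junb rose and Egr3 fell in all 3 backgrounds. The median log2 fold change over the 10 genes was 0.58 in siNtc, 0.40 in siErk3 and 0.45 in siMk5, beside -0.03, -0.01 and -0.01 over all genes tested. By the adjusted p alone 9, 9 and 8 of the 10 passed in siNtc, siErk3 and siMk5, beside 45.1%, 47.1% and 44.3% of all genes. Fosb, Fos and Fosl1, the lowest of the 10 per kilobase in siNtc BSA, had the largest log2 fold changes, and the plot of CPM by library shows all values.

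**Figure D1:**
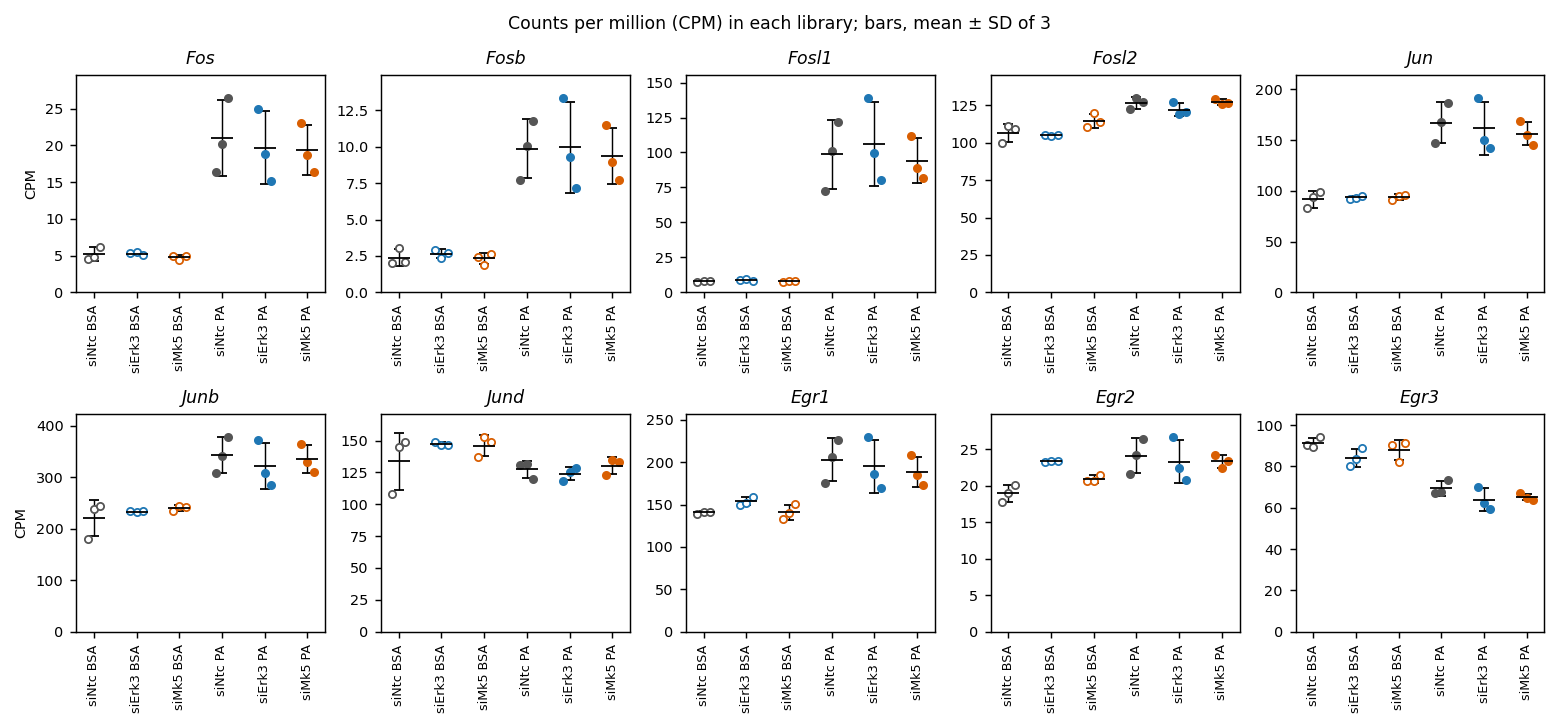
CPM of the 10 genes (1 panel each, linear axis from 0) in every library, with open circles for BSA, filled circles for PA and bars for the mean ± SD of 3 libraries. Fos, Fosb and Fosl1 are separated widely between the media, Jund overlaps between them, and Egr3 is lower in PA.

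Fosl1, on chr19:5497575-5505974 (plus strand), encodes Fra-1, a Fos protein without the transactivation domain of Fos that is itself an AP-1 target. Its level was 7.165, 8.001 and 8.228 CPM in siNtc BSA and 72.6, 101 and 122 CPM in siNtc PA. Fosl1 had the largest response of the 10 genes in every background, with log2 fold changes of 3.65 ± 0.18 (12.5-fold) in siNtc, 3.59 ± 0.17 in siErk3 and 3.55 ± 0.18 in siMk5. Over the 9 libraries of each medium, the lowest PA value of 72.6 CPM stood far above the highest BSA value of 9.28 CPM. By the size of its log2 fold change it was in place 422 of the 21772 genes in siNtc.

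Fos, on chr12:85520664-85524047 (plus strand), is the founding member, whose pairing with Jun gives a strongly activating AP-1. In siNtc BSA it had 4.50, 4.83 and 6.24 CPM, and in siNtc PA 16.3, 20.2 and 26.5 CPM. Its log2 fold change was 2.00 ± 0.17 in siNtc (adjusted p = 3.01e-11, edgeR), 1.90 ± 0.16 in siErk3 and 2.01 ± 0.18 in siMk5. Every PA library was above every BSA library, although the BSA values rest on only 64 to 141 counts. Fosb, on chr7:19036621-19043976 (minus strand), encodes FosB and its shorter splice form ΔFosB, which the gene count does not separate. It had 2.04, 3.04 and 2.08 CPM in siNtc BSA and 7.74, 10.1 and 11.8 CPM in siNtc PA. Its log2 fold changes were 2.00 ± 0.21, 1.90 ± 0.19 and 2.02 ± 0.21 in siNtc, siErk3 and siMk5, close to those of Fos. Fosb had the fewest counts of the group, with 29 to 76 per BSA library.

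Fosl2, on chr5:32293145-32315186 (plus strand), encodes Fra-2 and was already at 100 to 120 CPM in BSA. It had 100, 111 and 109 CPM in siNtc BSA and 122, 130 and 127 CPM in siNtc PA. Its log2 fold change of 0.24 ± 0.05 had an adjusted p of 6.04e-05 in edgeR, but it was below the 1.3-fold limit, as were 0.22 ± 0.05 in siErk3 and 0.15 ± 0.05 in siMk5. Fosl2 was therefore not called in any background.

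Jun, on chr4:94937271-94940459 (minus strand), encodes the main DNA-binding partner of Fos and regulates its own promoter. It had 82.7, 93.8 and 98.5 CPM in siNtc BSA and 147, 168 and 187 CPM in siNtc PA, with no overlap. Its log2 fold changes were 0.86 ± 0.08 in siNtc, 0.79 ± 0.08 in siErk3 and 0.74 ± 0.08 in siMk5. Junb, on chr8:85701113-85705347 (minus strand), encodes a Jun protein with weaker transactivation that also maintains myofibre size. It had 181, 239 and 244 CPM in siNtc BSA and 308, 341 and 378 CPM in siNtc PA. Its log2 fold changes were 0.63 ± 0.09, 0.47 ± 0.08 and 0.48 ± 0.09 in siNtc, siErk3 and siMk5. The first BSA library was the lowest for Jun, Junb and Jund, and without it Junb rose by 0.48 on the log2 scale in siNtc. In siErk3, Junb was 0.33 and was no longer called without PA replicate 1.

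Jund, on chr8:71151599-71153265 (plus strand), encodes the Jun protein that is usually expressed constantly and slows proliferation. It was the only Jun gene not called in PA. It had 108, 145 and 149 CPM in siNtc BSA and 131, 132 and 120 CPM in siNtc PA, so the groups overlapped through BSA replicate 1. The log2 fold change was -0.08 ± 0.07 in siNtc (95% interval -0.23 to 0.07), and -0.22 without that library. In siErk3 it was -0.25 ± 0.07, which passed the adjusted p of edgeR (0.00346), and in siMk5 -0.16 ± 0.07, which did not (0.0646). Neither reached 1.3-fold, although in both backgrounds every PA library was below every BSA library.

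Egr1 and Egr3 moved in opposite directions in all 3 backgrounds, although Egr1 was called only in siNtc and siMk5. Egr1, a mediator of growth factor and mechanical signals, had 139, 142 and 141 CPM in siNtc BSA and 176, 206 and 226 CPM in siNtc PA. It rose by 0.52 ± 0.08 on the log2 scale in siNtc and by 0.42 ± 0.08 in siMk5. In siErk3 its log2 fold change was 0.34 ± 0.08, which passed the adjusted p of edgeR (0.000633) but not the 1.3-fold limit. These calls depended on single libraries: Egr1 was called in siErk3 without PA replicate 3, at 0.42, and it was not called in siMk5 without PA replicate 1, at 0.33.

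Egr2, on chr10:67371305-67378018 (plus strand), known for Schwann cell myelination and for its response in activated lymphocytes, was called in no background. It had 17.8, 19 and 20.1 CPM in siNtc BSA and 21.7, 24.3 and 26.5 CPM in siNtc PA, a log2 fold change of 0.34 ± 0.08. Without PA replicate 1 of siNtc it was 0.41 and called. In siErk3 it had 23.3, 23.4 and 23.4 CPM in BSA and 26.7, 22.5 and 20.8 CPM in PA, with a log2 fold change of 0.00 ± 0.08 (95% interval -0.16 to 0.15). In siMk5 it was 0.16 ± 0.08.

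Egr3, on chr14:70314652-70320063 (plus strand) and needed for muscle spindle formation, fell in PA. It had 90.5, 89.5 and 94.1 CPM in siNtc BSA and 67.0, 67.5 and 73.4 CPM in siNtc PA. The log2 fold changes were -0.40 ± 0.06 in siNtc, -0.40 ± 0.06 in siErk3 and -0.43 ± 0.06 in siMk5. All 9 PA libraries, at 59.6 to 73.4 CPM, were below all 9 BSA libraries, at 80.0 to 94.1 CPM. These fold changes lie just past the limit, and in siErk3 Egr3 was -0.37 and not called without BSA replicate 3 and also without PA replicate 3. The plot of the PA responses sets the 3 backgrounds side by side.

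**Figure D2:**
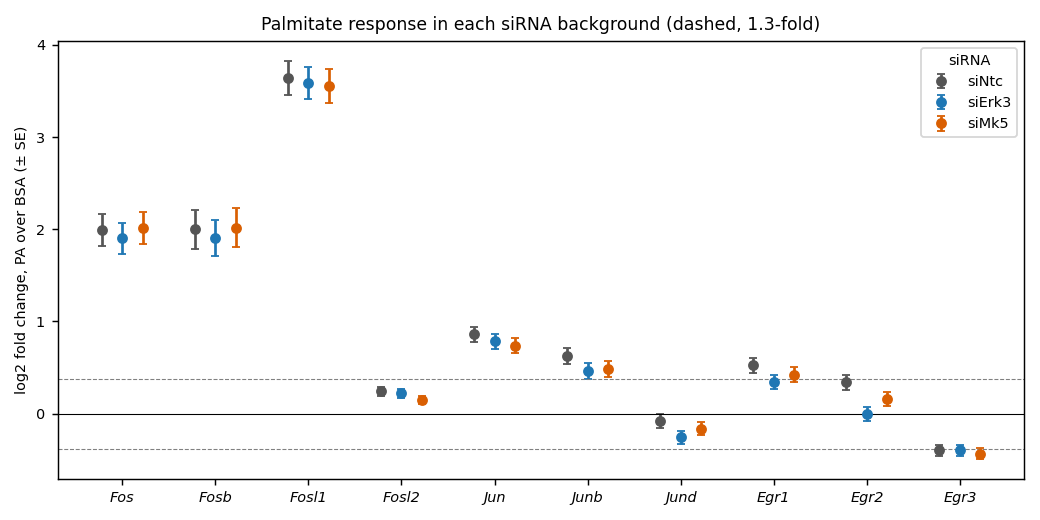
Log2 fold change of PA over BSA (± SE, edgeR, 3 libraries against 3) for each gene with siNtc, siErk3 or siMk5, with dashed lines at 1.3-fold either way. Fosl1 stands at 3.55 to 3.65, Fos and Fosb at 1.90 to 2.02, and Egr3 below 0 in each background.

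Silencing Erk3 or Mk5 asks whether either kinase sets the level of these genes or their response to PA. In edgeR 0 of the 10 genes were called in siErk3 against siNtc in BSA, in siMk5 against siNtc in BSA, and in the same comparisons in PA, and DESeq2 also called 0 in each. The background was low, since 0.785%, 0.0643%, 0.556% and 0.547% of all genes were called in these 4 comparisons. At an unadjusted p below 0.05 there were 2 genes in siErk3 BSA (Egr2 and Egr3), 1 in siMk5 BSA (Fosl2), and 0 in both PA comparisons. Over all genes this limit was passed by 10.6% and 6.89% in BSA and by 8.28% and 6.79% in PA. The log2 fold changes lay between -0.13 and 0.30 (BSA) and between -0.12 and 0.11 (PA). Their 95% intervals stayed within -0.63 and 0.65 (BSA) and within -0.39 and 0.39 (PA).

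Egr2 came nearest to a call. Its 3 siErk3 BSA libraries, at 23.3 to 23.4 CPM, were above the 3 siNtc BSA libraries, at 17.8 to 20.1 CPM. The log2 fold change was 0.30 ± 0.08 with an adjusted p of 0.0653 in edgeR. Fitted on the libraries of these groups alone, the adjusted p was 0.0181 and the log2 fold change 0.27, still under 1.3-fold. Egr3 was lower in siErk3 BSA by a log2 fold change of -0.12 ± 0.06, and Fosl2 in siMk5 BSA was higher by 0.10 ± 0.05. In PA, where siErk3 had 20.8 to 26.7 CPM of Egr2 and siNtc 21.7 to 26.5, the groups overlapped.

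The difference of the PA response between silenced and control cells was tested as an interaction. For siErk3 and for siMk5 0 of the 10 genes were called by edgeR and 0 by DESeq2, beside 0.0367% and 0.211% of all genes by edgeR. Only Egr2 had an unadjusted p below 0.05, for siErk3, where 6.1% of all genes did (7.43% for siMk5): its PA response was smaller than in siNtc by a log2 difference of -0.34 ± 0.11, with an adjusted p of 0.537. For Fos the log2 difference was -0.09 ± 0.25 with siErk3 (95% interval -0.60 to 0.41) and 0.02 ± 0.26 with siMk5 (-0.51 to 0.54). For Fosl1 it was -0.06 ± 0.27 and -0.09 ± 0.28. No difference in these responses was detectable with 3 libraries a group.

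Libraries of the same PA group differed in these genes more than libraries of the same BSA group did for 8 of the 10, and for 10 of the 10 without siNtc BSA replicate 1. The share of all genes that did so is not given here, and the 10 were chosen on their joint PA variation. For each library the log2 CPM minus the mean of its group was taken, which leaves 6 degrees of freedom in the 9 libraries of a medium. The pooled within-group SD of Fos was 0.32 in PA and 0.16 in BSA. That of Fosl1 was 0.35 and 0.10, of Fosb 0.35 and 0.24, of Jun 0.18 and 0.08, and of Egr1 0.18 and 0.06. Fosl2 and Jund had 0.041 and 0.071 in PA against 0.057 and 0.155 in BSA, but 0.038 and 0.054 in BSA without that library, an alternative chosen after the data were seen. Junb had 0.157 in PA and 0.141 in BSA, which became 0.025 without it. The median over all genes averaging at least 1 CPM was 0.09 in PA and 0.08 in BSA. Of these 12734 genes, 95.5% had a smaller PA SD than Fos, 96.8% than Fosb and 96.6% than Fosl1. In BSA these shares were 81.1%, 92.1% and 63.5%, so Fos and Fosb spread more than most genes in both media. They had only 64 to 141 and 29 to 76 counts per BSA library, where counting noise adds to the spread. Genes of like depth were not compared, so these ranks need not be a trait of the 2 genes.

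The differences between PA libraries ran in parallel, which is the pattern these genes were chosen on. Fos was highest in siNtc PA replicate 3, siErk3 PA replicate 1 and siMk5 PA replicate 1. In 6 of the other 9 genes (Fosb, Fosl1, Jun, Junb, Egr1 and Egr3) the 3 libraries kept the order of Fos in every PA group. The library with most Fos exceeded the library with least by 1.62 times in siNtc, 1.65 in siErk3 and 1.41 in siMk5. For Fosl1 these ratios were 1.68, 1.73 and 1.37, for Egr1 1.29, 1.35 and 1.20, and for Egr3 1.10, 1.18 and 1.05. Egr3 thus went with Fos between PA libraries while its mean was lower in PA than in BSA.

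**Figure D3:**
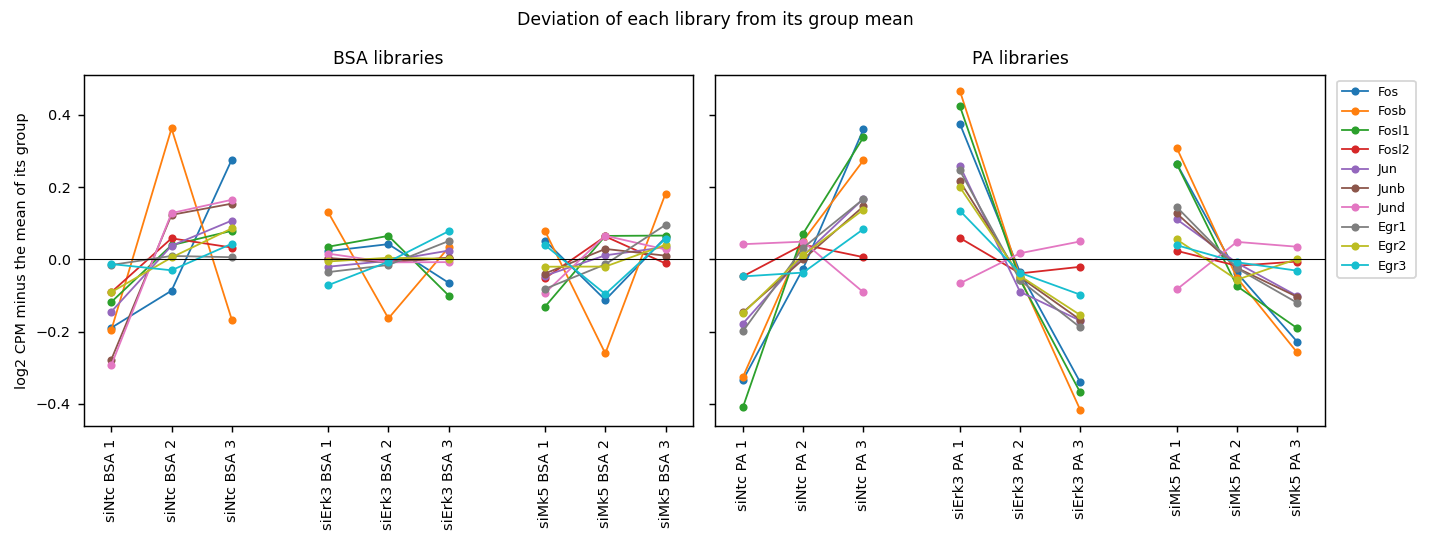
Log2 CPM of each library minus the mean of its group, for the 10 genes, in BSA (left) and PA (right), with lines joining the 3 libraries of a group and no time order. In PA, Fos, Fosb and Fosl1 span -0.42 to 0.47 and Jund runs against them.

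Jund was the exception in direction. It had 120 CPM in the siNtc PA library with most Fos and 131 CPM in that with least, and likewise 118 against 128 in siErk3 and 123 against 133 in siMk5. Over the 9 PA libraries its Pearson r with each of the other 9 genes was negative, with a median of -0.84. The 36 pairs without Jund were all positive, from 0.67 to 1.00 with a median of 0.95. Fosl2 had the weakest r with Fos of the positive ones, 0.70, with its PA libraries within 119 to 130 CPM. These correlations describe 9 libraries that share the scaling of their library sizes, and they carry no test.

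The joint variation the genes were chosen on was that of the PA libraries. In the 9 BSA libraries the 45 pairs had a median r of 0.41, from -0.35 to 0.98, beside a median of 0.92 in PA. Without siNtc BSA replicate 1, which stood apart, the BSA median was 0.33 and 30 of the 45 pairs were positive. Jund, opposite to the others in PA, had a median r of 0.75 with them in BSA (0.49 without that library) and followed Junb most closely, with 0.98 (0.97 without it). A single pair was tested, Fos with Egr1. In BSA Pearson's r was 0.04 and Spearman's rho 0.13 over 9 libraries, with p of 0.889 and 0.801 in a two-sided exact permutation within groups (216 arrangements, smallest possible p 0.00463). Without the 2 libraries farthest from the middle of Fos, both from siNtc, r was -0.09 over 7. In PA the same pair had an r of 0.98 and a rho of 0.97. Fos had only 64 to 141 counts per BSA library, so counting noise can hide a correlation there. The BSA test therefore cannot show that the 2 genes vary apart, and the same limit holds for every other r with Fos in BSA.

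**Figure D4:**
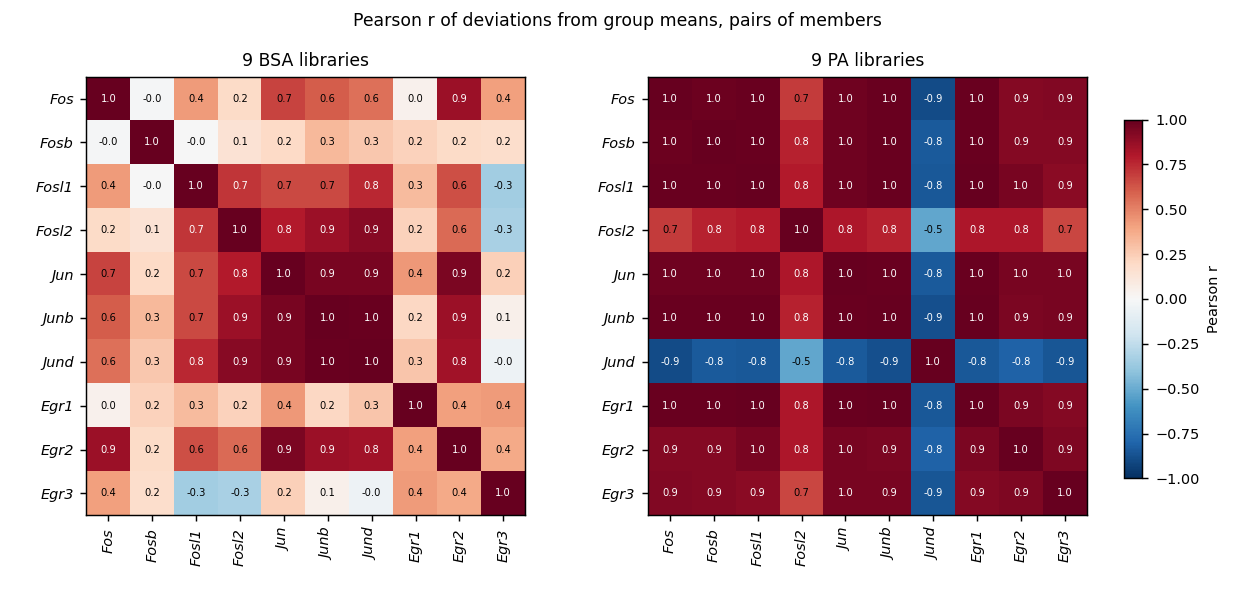
Pearson r between the within-group deviations of each pair of genes over the 9 BSA libraries (left) and the 9 PA libraries (right), on a colour scale from -1 to 1. In PA the pairs are near 1 except for Fosl2 and, with negative values, Jund. In BSA the values are mixed, and the PA pattern is the one by which the genes were chosen.

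The genes whose deviations were most like those of Fos over the 9 PA libraries were Fnip2, Hspa1b, Hmga1, Prdx1, Eaf1, Hmox1, Tgif1, Ncoa3, Arhgap22 and Slc3a2, with r from 0.994 to 0.999 among 12733 genes. In BSA the same 10 genes had r with Fos from -0.26 (Eaf1) to 0.75 (Hspa1b). All 10 rose in PA with control siRNA. Hmox1, the stress-induced heme oxygenase, went from 26.7 ± 2.7 to 588 ± 103 CPM (SD, n = 3), and Slc3a2, the heavy subunit of amino acid transporters, from 81.7 ± 6.4 to 707 ± 107 CPM. Hmga1, a chromatin architectural protein, went from 8.93 ± 1.10 to 92.5 ± 17.96 CPM, and Prdx1, a peroxidase, from 294 ± 14 to 747 ± 96 CPM. Hspa1b is nearly identical to Hspa1a, and read pairs that fit both can be assigned to either. At the other end, and named after their values were seen, were Atp2b4, Ttc28, Fstl1, Cyp51 and Mmp14, with r from -0.999 to -0.996. Of these, Cyp51, a sterol synthesis enzyme, rose in siNtc PA by 0.55 ± 0.04 on the log2 scale, and the others fell.

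Variation with Fos followed the direction of the PA response across genes. Of the 2884 genes averaging at least 1 CPM that were called higher in siNtc PA, 83.0% had a positive r with Fos over the PA libraries, beside 12.2% of the 2667 called lower and 48.2% of the 7182 not called. In BSA the shares were 58.5%, 60.9% and 57.1%. Genes are not independent replicates, and Fos itself is among the genes that rose, so these shares are descriptions. Egr3 was placed apart from this relation, with an r of 0.92 at a log2 fold change of -0.40, as the plot of r with Fos against the PA response shows. Jund, among the genes not called, had an r of -0.89 at a log2 fold change of -0.08, or -0.22 without siNtc BSA replicate 1.

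**Figure D5:**
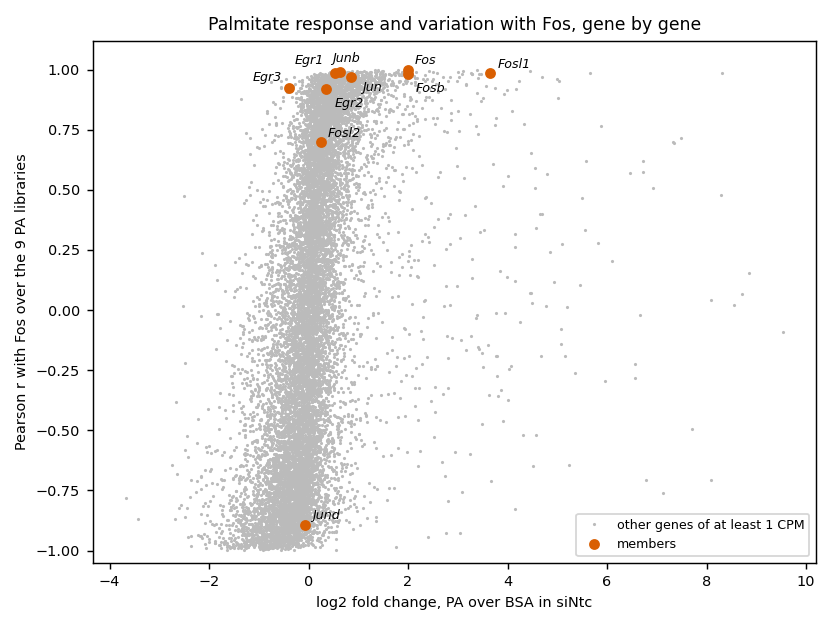
Pearson r with Fos over the 9 PA libraries against the log2 fold change of PA over BSA in siNtc, for genes averaging at least 1 CPM (grey) and the 10 genes (orange). Most of the 10 lie near an r of 1 at positive fold changes, Egr3 near 1 at -0.40, and Jund at -0.89.

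Measures of the libraries were set beside the Fos deviations in PA. The total count had an r of 0.14, the share of 18S reads -0.25, the share of mitochondrial reads -0.02 and the TMM factor -0.05, and the summed myotube markers 0.20. Single myotube markers ran both ways with Fos, from an r of -0.98 for Myog to 0.89 for Myh8. Of the 12 myotube markers 8 fell in siNtc PA, and 4 in siErk3 and in siMk5, such as Atp2a1, the calcium pump of fast fibres, by 1.18 ± 0.06 on the log2 scale in siNtc. Beside this and the counts of falls that follow, 15.1%, 16.3% and 14.6% of all genes were called lower in siNtc, siErk3 and siMk5. The medians of the 12 log2 fold changes were -0.43, -0.35 and -0.31, near the 1.3-fold limit, and 0 of the 12 interactions were called with either siRNA. In siErk3 against siNtc, the neonatal myosin gene Myh8 was higher by 0.57 ± 0.05 on the log2 scale in BSA and by 0.60 ± 0.06 in PA, and the embryonic gene Myh3 by 0.39 ± 0.05 in BSA. The summed level of 8 markers of proliferating myoblasts had an r of -0.92. All 8 were detected, their sum was 1021 to 1116 CPM in BSA and 418 to 556 CPM in PA, and 7 fell in each background, such as Mki67, a proliferation marker, by 1.13 ± 0.06 on the log2 scale. The summed level of the 6 measured of the 8 fibroblast, endothelial and blood cell markers had an r of -0.91, at 75.2 to 97.3 CPM in BSA and 37.5 to 57.5 CPM in PA. Most abundant in this sum was the fibroblast gene Dcn, with 58.4 CPM on average in siNtc BSA and 35.4 CPM in siNtc PA. Singly, the fibroblast genes Dcn, Dpt and Pdgfra had r of -0.95, -0.91 and -0.57 with Fos. The low endothelial and blood cell genes Pecam1, Cdh5 and Cd68 had positive r of 0.66, 0.32 and 0.35. Of the 6 measured, 3 fell in each background and in siMk5 the macrophage gene Cd68 also rose, from 0.938 to 1.497 CPM on average. The part of these cells and of these library measures in the pattern was not tested.

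Of 39 other immediate early genes, 38 were measured, and 24 rose and 4 fell in siNtc PA. Over all genes 15.5% were called higher and 15.1% lower. The log2 fold changes of the list had a median of 0.60, beside -0.03 over all genes. In siErk3 23 rose and 6 fell, and in siMk5 24 rose and 6 fell. The largest changes in siNtc were those of Ptgs2, the inducible cyclooxygenase, from 31.4 to 1566 CPM on average (log2 fold change 5.65 ± 0.17), of Atf3, a stress-induced basic leucine zipper factor that pairs with Jun proteins, from 2.35 to 66.4 CPM (4.78 ± 0.12), of Ier3, a regulator of survival (3.08 ± 0.14), and of Dusp5, a nuclear phosphatase of ERK (2.49 ± 0.21). Npas4, Sik1, Rhob and Ccn2, named here because they were the 4 that fell, had log2 fold changes of -1.41, -0.81, -0.43 and -0.40. Over the PA libraries 34 of 37 had a positive r with Fos, among them Dusp5 with 0.99, Ptgs2 with 0.99 and Ier3 with 0.98, whereas Atf3 had 0.56. That share of 91.9% compares with 48.5% of all genes, and the median r was 0.93 in PA and 0.24 in BSA. Of the interactions, 1 was called in this list, that of Ccn1, a matricellular YAP target, with siErk3, at a log2 difference of -0.38 ± 0.07 between the PA responses. The fold limit was missed in DESeq2, and 11 of the 12 fits without a single library did not call it, with values from -0.41 to -0.35.

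Of 17 kinases and factors upstream of these genes, including Srf, the Elk factors, Creb1 and the ERK, JNK and p38 genes, 2 rose and 2 fell in siNtc PA, near the 15.5% and 15.1% of all genes, and the median of their log2 fold changes was 0.03. Map2k1, which encodes MEK1, rose by 0.84 ± 0.06 and Mapk3, which encodes ERK1, fell by 0.60 ± 0.06 on the log2 scale. Elk1, outside the rule for named genes, was the other that rose, and Rps6ka5 was the other that fell. In siErk3 and siMk5 2 rose and 4 fell. By the adjusted p alone 11 of the 17 passed in siNtc, beside 45.1% of all genes.

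Of 15 partners and Egr co-regulators, 6 rose and 1 fell in siNtc, where 15.5% and 15.1% of all genes did. Their median log2 fold change was 0.33, beside -0.03 over all genes. Atf3, above, and Maff, a small Maf protein (14.4 to 50.8 CPM, log2 fold change 1.80 ± 0.14), had the largest changes of those over 1 CPM. In siErk3 7 rose and 1 fell (all genes 15.8% and 16.3%), and in siMk5 5 rose and 2 fell (15.1% and 14.6%).

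Of 20 genes known as AP-1 or Egr targets, 19 were measured, and 13 rose and 1 fell in siNtc, and the median of their log2 fold changes was 0.97, beside -0.03 over all genes. In siErk3 11 rose and 3 fell, and in siMk5 11 rose and 1 fell. Over all genes 15.5%, 15.8% and 15.1% were called higher and 15.1%, 16.3% and 14.6% lower in siNtc, siErk3 and siMk5. Mmp13, a collagenase, went from 0.04 to 4.30 CPM, Hmox1 rose by 4.45 ± 0.13 on the log2 scale, and Ccl2, a monocyte chemokine, went from 3.90 to 39.8 CPM. Over the PA libraries 15 of the 17 targets averaging at least 1 CPM had a positive r with Fos, and the median r was 0.90. That share of 88.2% compares with 48.5% of all genes. Thbs1, which encodes thrombospondin, fell from 4707 to 1582 CPM (-1.57 ± 0.09) and had the lowest r with Fos of the list, -0.99. It was also the target gene that differed in siErk3 PA against siNtc PA, at -0.41 ± 0.09, and Ccl2 the one that differed in siMk5 PA, at -0.58 ± 0.12, although DESeq2 called neither (adjusted p = 0.0932 and 0.156). Thbs1 was not called without either of siNtc PA replicates 1 and 2 or siErk3 PA replicates 1 and 2, where it ran from -0.43 to -0.27. Ccl2 was not called without siNtc PA replicate 3 (-0.48), siMk5 PA replicate 2 (-0.53) or siMk5 PA replicate 3 (-0.45).

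Of the lists, the heat shock genes had the highest share of r with Fos above 0.9 in PA. Of 10, 9 rose in each background and 0 fell, and the median of the log2 fold changes was 0.99 in siNtc, where 15.5% of all genes were called higher and the median over all genes was -0.03. Hspa1b, an inducible Hsp70, rose by 1.80 ± 0.11 and Hspd1, the mitochondrial chaperonin, by 1.40 ± 0.06 on the log2 scale in siNtc. All 10 had a positive r with Fos over the PA libraries, 8 of them above 0.9, and their summed level had an r of 1.00 in PA and of -0.20 in BSA. Above 0.9 were 7.85% of all genes.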

How the data were processed

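Differentiated C2C12 myotubes of 6 groups, 3 libraries each, were profiled by stranded poly(A) RNA sequencing. Per the file header and the study's methods, the authors trimmed the reads, aligned them to GRCm39 with STAR and deposited raw counts of read pairs per gene, made with featureCounts 2.0.0, strand setting 2, a minimum mapping quality of 3 and Ensembl annotation 105. Duplicates were marked and kept. A second deposited table was not used. All statistics were computed from the counts. Genes with at least 10 counts over the 18 libraries (21772) were scaled by TMM and fitted in edgeR 4.0.16 (quasi-likelihood, 1 coefficient per group, R 4.3.3), in place of the DESeq2 of the study's methods. A gene was called at a Benjamini-Hochberg adjusted p below 0.05 over all genes and a fold change above 1.3. The standard error is that implied by the F statistic. Within-group deviations used log2 CPM with a prior count of 2, for genes averaging at least 1 CPM. Total counts were 13041979 to 28496727, which limits the precision of low genes such as Fosb. On simulated counts for siNtc PA against BSA, 191 of 200 genes changed by 1 on the log2 scale were called (95.5%), and 2 unchanged ones, among 21384 genes. The 200 were drawn from genes averaging at least 1 CPM, and no other gene was changed. Smaller changes were not simulated, so the share called does not apply to them.

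The 10 genes and all lists (other immediate early genes, upstream factors and kinases, partners and co-regulators, AP-1 and Egr targets, heat shock genes, and markers of myotubes, proliferating myoblasts and other cells) were chosen with earlier results of these data known. Genes named beside the 10 were the 4 called other immediate early genes and the 3 called genes of each other list with the largest fold changes per comparison, and the 10 genes most correlated with Fos in PA. Alternatives were DESeq2 1.42.0, its size factors, both other filters on low counts, a replicate block, the compared libraries alone, the adjusted p without the fold limit, and leaving out each library. The promoter sequences of Fosl1 and Egr3 are not reported here.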

Additional observations from a re-analysis of the deposited data

How the results depend on the processing

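The counts of AP-1 and Egr genes called in PA against BSA were 7, 6 and 7 in siNtc, siErk3 and siMk5, and they were the same with DESeq2, with DESeq2 size factors, with either other filter, with the compared libraries alone and with the replicate block (7, 6 and 7). Leaving out single libraries gave 7 to 8, 5 to 6 and 6 to 7, and the adjusted p alone 9, 9 and 8, where 45.1%, 47.1% and 44.3% of all genes passed. The counts in the silencing comparisons and interactions were 0 throughout. The median r of Fos with the other 9 genes over the PA libraries was 0.97, and it ran from 0.96 to 0.98 without single libraries. Egr2 in siErk3 PA against BSA changed sign around 0, from -0.00153 to 0.0109 with no filter beyond 1 count and 0.00488 with the compared libraries alone, and from -0.125 to 0.054 without single libraries. The r of Fos with Egr1 in BSA was -0.071 with DESeq2 size factors (exact permutation p = 0.838) and from -0.213 to 0.222 without single libraries. Counts over all genes moved by more than 1.5 times in some settings. With no filter beyond 1 count, siMk5 in BSA went from 14 to 61 genes, siErk3 in PA from 121 to 208, and the interactions from 8 to 72 and from 46 to 130. The siErk3 interaction had 4 with DESeq2 size factors, 0 with the stricter filter and 4 with the compared libraries alone, and siErk3 in PA had 71 in the last. Without single libraries, siMk5 in BSA had 6 to 25 genes, siErk3 in BSA 113 to 144, the siErk3 interaction 0 to 24 and the siMk5 interaction 22 to 67. With the adjusted p alone, siErk3 had 263 genes in place of 171 in BSA and 186 in PA. The cause was not tested. No pairing of the libraries by replicate number was detected: in 0 of 15 pairs of groups did every same-numbered pair correlate above 0.1, with r from -0.42 to 0.30. Such a cut cannot show that the libraries were unpaired. Depth limited Fos and Fosb most, with 64 to 141 and 29 to 76 counts in BSA libraries.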
